A study of Rattus norvegicus with 4 samples.

Results

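The vacuolar proton pump (V-ATPase) genes of the rat adrenal medulla were followed through 10 genes: Atp6v1a, Atp6v1b2, Atp6v1c1, Atp6v1d, Atp6v1e1, Atp6v1f and Atp6v1h of the V1 sector, Atp6v0a1 of the V0 sector, and the accessory genes Atp6ap1 and Atp6ap2. They were chosen by name, with earlier results of these data known. Every probe set that the platform annotation assigns to 1 of them alone was taken, which gave 13 probe sets for 10 of the 14217 genes named on the array. A probe set is a group of short probes read together as 1 value. Total RNA had been hybridised to 4 single-colour Affymetrix arrays. The immobilized group held 2 arrays from rats restrained for 2 h, and the unstressed group held 2 arrays from rats left unstressed. Strain, age, sex, the method of restraint and the number of animals behind each array are not given in the sources used here, so p-values measure the spread between these arrays, which may be technical.

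Chromaffin cells of the adrenal medulla store adrenaline and noradrenaline in dense-core granules whose interior is kept acidic by the V-ATPase. The V1 sector in the cytosol hydrolyses ATP and turns a central rotor, and the V0 sector in the membrane carries protons inward as it turns. The resulting proton gradient drives the vesicular monoamine transporters, which exchange protons for catecholamines. The same pump also acidifies lysosomes and endosomes, so these transcripts are not particular to granules.

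None of the 10 pump genes changed past the threshold after 2 h of immobilization. Taking the brightest probe set of each gene, 0 rose and 0 fell (limma, Benjamini-Hochberg adjustment, threshold 0.05), while 33.0% of the 10320 genes tested were called, 11.2% upward and 21.8% downward. By probe set the count was 0 of 13, while 31.1% of the 18625 tested were called, 11.7% upward and 19.4% downward. At an unadjusted p under 0.05 in limma the count was 1 of the 10, Atp6v1e1, against 44.8% of all genes. The median log2 change of the 10 genes, immobilized minus unstressed, was 0.16, with a range of -0.09 to 0.51, against a median of -0.14 over all genes tested. The median of the 10 was 0.30 after median centring of the arrays, 0.07 after quantile normalization, 0.08 without immobilized 1 and 0.09 without unstressed 2. All 10 changes were smaller than 1.5-fold, as were those of 67.7% of all genes. All 13 probe sets had a 95% interval inside a 2-fold change in either direction, with ends from 0.75-fold to 1.87-fold. So did 11177 of the 18625 probe sets tested, and 4918 of the 6507 in the brightness range of the 13. Changes are on the scale of log2(intensity + 16), and the lowest reading of the 13 probe sets on any array was 2866.

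All 13 probe sets passed the filter on dim values, an intensity of 544. By comparison, 27 control probe sets for Bacillus transcripts, which no rat cell makes, read at most 257. In mean level the brightest probe sets of the 10 genes lay between percentiles 89.1 and 99.2 of the array. Of the 2447 genes whose brightest probe set lay in the same range, 30.1% were called, 16.7% upward and 13.4% downward, and 78.9% changed by less than 1.5-fold. Their median log2 change was -0.02, against 0.16 for the pump genes and -0.14 for all genes tested. A level in whole tissue cannot tell fewer cells of a type apart from less RNA per cell.

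**Figure D1:**
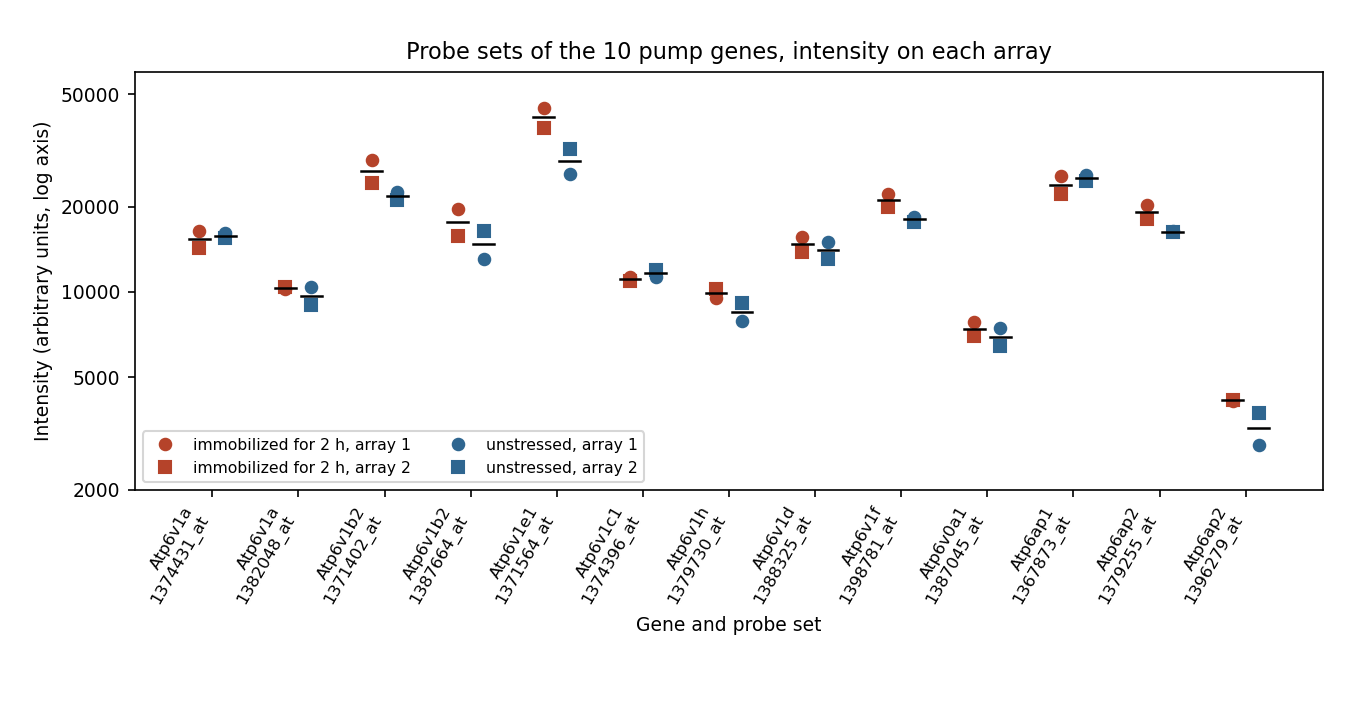
Intensity of each probe set of the 10 pump genes on a log axis, with 1 point per array, immobilized arrays on the left and unstressed arrays on the right of each pair, and bars at the group means. The 2 immobilized readings of Atp6v1e1, 44723 and 38146, stand above its 2 unstressed readings, while the 4 readings of Atp6v1a overlap.

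Both groups carried the defining transcripts of chromaffin cells. Of 10 listed chromaffin markers 9 were on the array, none changed past the threshold, and their summed intensity was 445088 and 322084 in the immobilized group, against 369377 and 334884 in the unstressed group. Markers of the adrenal cortex were also present in these samples labelled medulla. Of 11 listed cortical markers 9 were on the array, with sums of 475940 and 338650 in the immobilized group and 400367 and 448306 in the unstressed group. The median log2 change of these 9 genes was -0.24, and 3 of them had a positive change. Cyp11b1 had -0.64, Cyp11a1 -0.35, Cyp21a1 and Akr1b7 -0.27 each, Hsd3b1 -0.24 and Fdx1 -0.19, none past the threshold, and Star had 0.07. The 2 called were Scarb1 and Nr5a1, both rises, while 11.2% of all genes rose and 21.8% fell. Scarb1, a receptor for high-density lipoprotein, rose by 1.76 on the log2 scale and Nr5a1, the steroidogenic transcription factor, by 0.47 (adjusted p = 0.00145 and 0.0437 in limma). Their other probe sets had 1.96 and 0.44 (adjusted p = 0.00299 and 0.456 in limma), and that of Nr5a1 overlapped between the groups. Of 7 endothelial markers tested Esam rose and Kdr fell, and of 3 Schwann and sustentacular markers S100b fell (log2 change 0.59, -0.79 and -0.59). None of 8 macrophage or 6 fibroblast markers was called, and all 5 adipocyte markers lay under the filter in mean level. The summed intensity of these 5 was 863 and 1487 in the immobilized group, against 832 and 942 in the unstressed group. Ucp1, 1 of them, read 672 on immobilized 2, above the filter intensity of 544. It read 46.9 on immobilized 1 and 128 and 90.7 on the unstressed arrays. Both the chromaffin and the cortical sum were lowest on immobilized 2, whose 99th percentile of intensity was 30549. It was 36447 on immobilized 1, against 30002 and 31739 on the unstressed arrays. By this measure immobilized 1 stood above the other 3 arrays. By the highest reading of each array, immobilized 2 stood below the other 3 arrays, at 52133. These measures therefore do not settle which immobilized array was unusual among bright probe sets. Of the 13 pump probe sets 10 read lower on immobilized 2 than on immobilized 1, and the share of all probe sets that did was not computed. The median intensity over all probe sets was 827 on immobilized 2 and 864 on immobilized 1. The part of cortical RNA or of either immobilized array in the pump readings was not tested.

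Atp6v1e1 encodes subunit E, part of the peripheral stalks that hold the V1 head still while the rotor turns. It read 44723 and 38146 on the immobilized arrays, against 26095 and 32105 on the unstressed arrays. Both immobilized readings were higher than both unstressed readings. The log2 change was 0.51 ± 0.16 (moderated SE, n = 2 per group), or 1.43-fold with a 95% interval of 1.09 to 1.87. Here and below the SE is that of limma, whose variance also draws on the other probe sets (4.81 of 6.81 degrees of freedom). The adjusted p of 0.0541 in limma missed the threshold. The call depended on scaling: the adjusted p was 0.0121 after quantile normalization, where the log2 change was 0.45, and 0.0219 after median centring of the arrays, where it was 0.65. With an array left out the log2 change ranged from 0.36, without unstressed 1 (adjusted p = 0.282 in limma), to 0.66, without unstressed 2 (adjusted p = 0.0611).

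Atp6v1a and Atp6v1b2 encode subunits A and B, which alternate around the V1 head, A carrying the catalytic site. Atp6v1a read 16373 and 14303 in the immobilized group and 16170 and 15463 in the unstressed group. The groups overlapped, and the log2 change was -0.05 ± 0.13 with a 95% interval of -0.35 to 0.26 (n = 2 per group, limma). Its dimmer probe set read 10216 and 10398 in the immobilized group, against 10379 and 9004 in the unstressed group, a log2 change of 0.09 ± 0.13, also with overlap. Atp6v1b2 read 29235 and 24328 on the immobilized arrays, against 22576 and 21227 on the unstressed arrays. Its groups did not overlap, and the log2 change of 0.28 ± 0.14 had an adjusted p of 0.175 in limma. Its dimmer probe set gave nearly the same change, 0.27 ± 0.17, although its groups overlapped at 19678 and 15826 in the immobilized group and 13056 and 16413 in the unstressed group.

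Windows of 250 bases upstream of the annotated transcript start are shown for 3 of the pump genes, because they span the range of changes: Atp6v1e1 had the highest, Atp6v1a the one closest to 0 and Atp6ap1 the lowest. They are credited to RefSeq on the GRCr8 build, in which they lie at chr4:155716661-155716910 on the minus strand, chr11:70067252-70067501 on the plus strand and chrX:157230993-157231242 on the plus strand, and are written 5′ to 3′ along the gene. Capitals mark matches to GGGCGG, TCANNTGA or TATAAA on either strand.
Atp6v1e1: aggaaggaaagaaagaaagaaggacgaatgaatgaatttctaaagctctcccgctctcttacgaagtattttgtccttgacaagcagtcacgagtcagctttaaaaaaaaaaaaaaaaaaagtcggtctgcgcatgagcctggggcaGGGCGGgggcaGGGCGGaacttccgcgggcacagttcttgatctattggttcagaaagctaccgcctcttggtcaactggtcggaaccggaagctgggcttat
Atp6v1a: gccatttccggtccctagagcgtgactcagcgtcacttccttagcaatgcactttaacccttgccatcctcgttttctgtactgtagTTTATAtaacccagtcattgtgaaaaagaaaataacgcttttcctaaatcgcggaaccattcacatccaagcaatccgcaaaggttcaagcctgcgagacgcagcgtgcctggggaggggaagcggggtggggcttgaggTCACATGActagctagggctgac
Atp6ap1: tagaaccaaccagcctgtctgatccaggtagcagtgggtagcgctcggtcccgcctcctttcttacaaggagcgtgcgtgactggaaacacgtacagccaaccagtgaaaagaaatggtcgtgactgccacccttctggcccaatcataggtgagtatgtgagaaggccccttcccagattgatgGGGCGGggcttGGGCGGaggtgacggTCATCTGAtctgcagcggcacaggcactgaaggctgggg

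Windows were found for 7 of the 10 genes. The motifs were chosen after the windows had been read, so the counts are descriptions. GGGCGG, the core of the GC box, occurred on either strand in 5 of the 7 windows, those of Atp6v1e1, Atp6v1d, Atp6v0a1, Atp6ap2 and Atp6ap1, against 30.5% of 33469 windows of all genes. In that order G and C made up 48.4%, 55.2%, 56.4%, 58.8% and 58% of these 5 windows, against a median of 51.2% over all windows. The part of base composition in this count was not tested. TCANNTGA, a form of the E-box, occurred in 3 of the 7, as TCACATGA in Atp6v1a, TCATCTGA in Atp6ap1 and TCAACTGA in Atp6v0a1, against 6.65% of all windows. TATAAA was matched in 1 of the 7, Atp6v1a, against 12.9% of all windows. CACGTG, the E-box core of the element bound by the lysosomal regulator TFEB, was in 0 of the 7 windows and 5.59% of all, and the full cAMP response element TGACGTCA in 0 of the 7 and 1.59% of all. CACGTG, TCANNTGA and TGACGTCA read the same on both strands, and any CACGTG flanked by T and A would also match TCANNTGA. GGGCGG occurred in 2 places each in the windows of Atp6v1e1, Atp6ap1 and Atp6ap2, and motif counts were not tested against the changes.

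The other V1 genes had smaller changes than Atp6v1e1. Atp6v1f, for a subunit of the rotor shaft, read 22259 and 19995 in the immobilized group and 18428 and 17721 in the unstressed group, without overlap, and its log2 change was 0.22 ± 0.13 (adjusted p = 0.222 in limma). Atp6v1h, for the subunit that regulates ATP hydrolysis when V1 is detached, read 9543 and 10283 in the immobilized group, against 7891 and 9140 in the unstressed group. These readings did not overlap either, and the log2 change was 0.22 ± 0.13 (adjusted p = 0.241 in limma). Atp6v1d, for the other rotor shaft subunit, read 15622 and 13862 in the immobilized group, against 15027 and 13120 in the unstressed group, with overlap and a log2 change of 0.07 ± 0.13. Atp6v1c1, for the subunit that bridges the peripheral stalks and V0, read 11256 and 10925 in the immobilized group and 11268 and 12004 in the unstressed group. It was the 1 gene of the 10 whose immobilized readings both lay below both unstressed readings, although 11256 and 11268 are nearly equal, and its log2 change was -0.07 ± 0.12.

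Atp6v0a1 encodes the a1 form of subunit a, the large membrane subunit along which protons pass and the form typical of neurons and neuroendocrine cells. It read 7806 and 7003 on the immobilized arrays, against 7441 and 6427 on the unstressed arrays. The groups overlapped, and the log2 change was 0.10 ± 0.14 with a 95% interval of -0.23 to 0.42.

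Of the accessory genes, Atp6ap1 encodes Ac45, a glycoprotein bound to V0 that takes part in assembly and targeting of the pump. It read 25659 and 22190 in the immobilized group and 26019 and 24725 in the unstressed group, with overlap and a log2 change of -0.09 ± 0.14. Atp6ap2 encodes the (pro)renin receptor, a fragment of which is part of the pump. It read 20317 and 18165 on the immobilized arrays, against 16391 and 16338 on the unstressed arrays. The groups did not overlap, and the log2 change was 0.23 ± 0.12 (adjusted p = 0.202 in limma). Its dimmer probe set read 4107 and 4159 in the immobilized group, against 2866 and 3739 in the unstressed group, also without overlap, and its log2 change of 0.33 ± 0.17 was called without unstressed 2 (0.53, adjusted p = 0.032 in limma).

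Across the 10 genes the groups did not overlap at 6, with immobilized readings higher at 5 and lower at 1. Over all genes tested 69.7% did not overlap, 24.1% higher and 45.6% lower, and within the brightness range of the pump genes 67.5%, 31.9% higher and 35.6% lower. By probe set 7 of 13 did not overlap, 6 higher and 1 lower, while 67.8% of all probe sets did not, 25.5% higher and 42.4% lower. The change exceeded the difference between replicate arrays in both groups at 5 of the 13 probe sets. These were those of Atp6v1e1, Atp6v1f and Atp6v1h and the brighter ones of Atp6v1b2 and Atp6ap2. How many of all probe sets did so was not counted, so the 5 are a description only. The largest difference between replicates was 0.38 on the log2 scale. Where a gene had 2 probe sets their log2 changes differed by 0.14 for Atp6v1a, 0.02 for Atp6v1b2 and 0.10 for Atp6ap2. The median log2 level of the 13 probe sets was 14.00 and 13.81 on the immobilized arrays and 13.88 and 13.92 on the unstressed arrays, so that the unstressed arrays lay between the immobilized ones. The gene table lists a pseudogene each for Atp6v1a and Atp6v1e1, and whether their probes also match it was not examined.

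**Figure D2:**
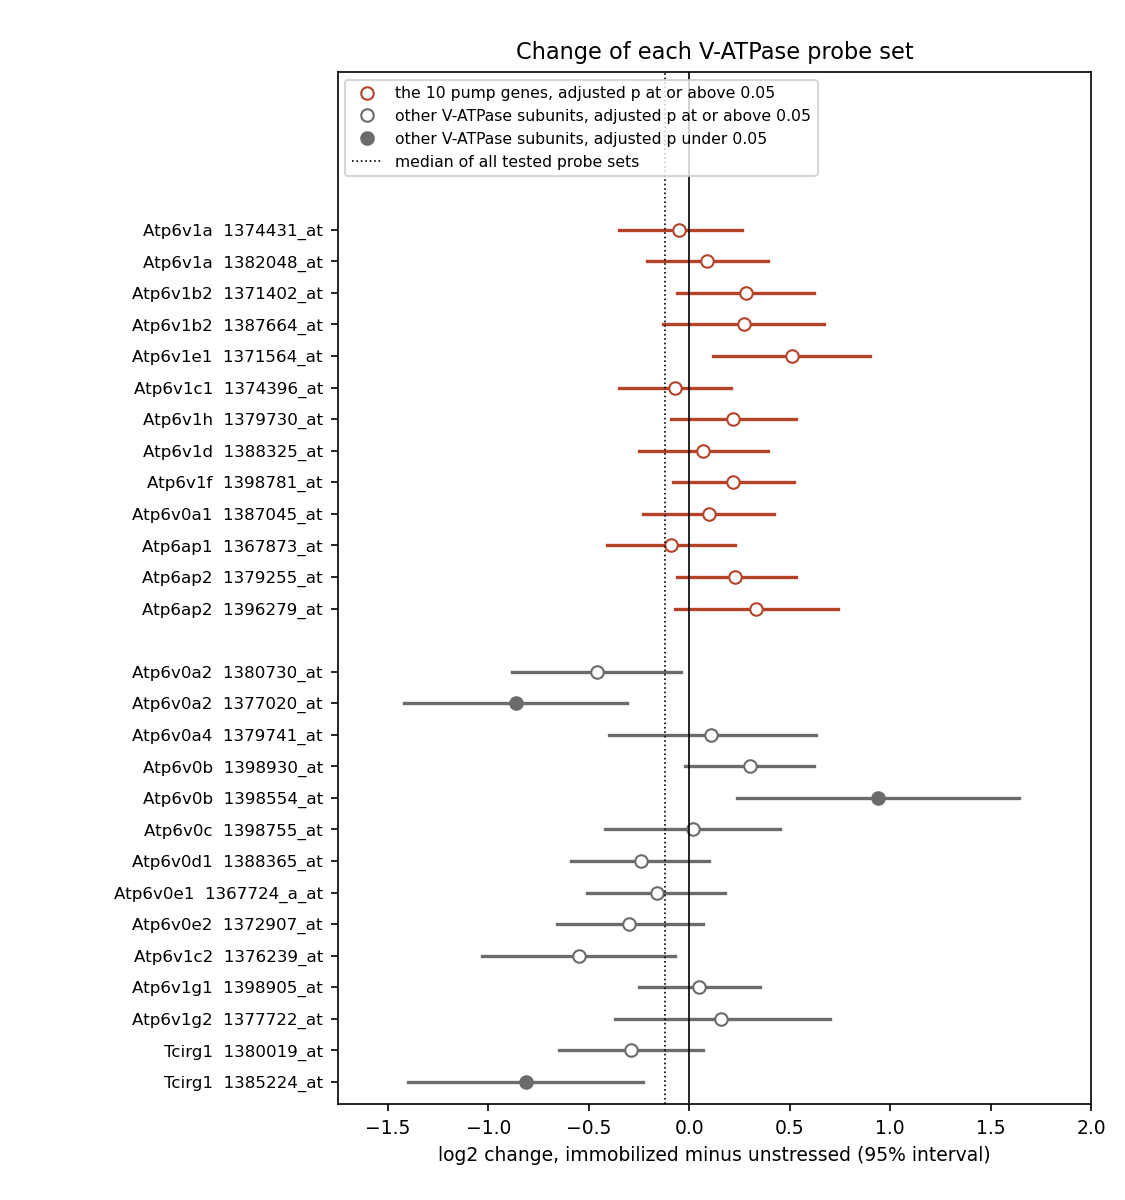
log2 change of each V-ATPase probe set that was tested, immobilized minus unstressed, with its 95% interval from limma. All 13 probe sets of the 10 pump genes have open points and lie between -0.09 and 0.51, and the 3 filled points among the other subunits are dimmer probe sets of Atp6v0a2, Atp6v0b and Tcirg1.

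The remaining V-ATPase subunits also gave no call by brightest probe set. Of 15 listed genes 13 were on the array and 11 were tested, of which 0 rose and 0 fell, with a median log2 change of -0.16. At an unadjusted p under 0.05 in limma there were 3 among the 21 V-ATPase genes tested in all, Atp6v1e1, Atp6v0a2 and Atp6v1c2. That is 14.3%, against 44.8% of all genes. Another 3 probe sets, each the dimmer one of its gene, passed the adjusted threshold, as did 31.1% of all probe sets tested. Atp6v0a2, for the a2 form of subunit a, known from the Golgi and endosomes, had a dimmer probe set at 1423 and 1183 in the immobilized group and 1995 and 2820 in the unstressed group. Its log2 change was -0.86 ± 0.23 (adjusted p = 0.0315 in limma), while the brighter one, at 1569 and 1603 in the immobilized group against 2078 and 2312 in the unstressed group, had -0.46 ± 0.18 (adjusted p = 0.0912). Tcirg1, for the a3 form known from osteoclasts and lysosomes, had -0.81 (adjusted p = 0.0441) at its dimmer and -0.29 (0.184) at its brighter probe set. Thus both probe sets of the a2 and a3 genes had negative changes, on arrays where the median over all probe sets was -0.12. The change of Atp6v0a1 was 0.10 and that of Atp6v0a4 was 0.11. The difference between these isoform genes was not tested. Without immobilized 1 or 2 all 3 calls were lost, with adjusted p of 0.101 and 0.187 for Atp6v0a2, 0.224 and 0.103 for Tcirg1, and 0.201 and 0.209 for Atp6v0b. Those of Atp6v0a2 and Atp6v0b were lost without unstressed 2 as well (0.0843 and 0.116), that of Tcirg1 without unstressed 1 (0.11), and those of Atp6v0a2 and Tcirg1 after quantile normalization and after median centring. With no filter those of Tcirg1 (0.0696) and Atp6v0b (0.0763) were lost, and without the intensity trend that of Atp6v0b (0.0548).

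Neither c-ring gene of V0, whose products carry the protons, passed the threshold at its brightest probe set. Atp6v0c, for subunit c, read 41393 and 29754 in the immobilized group and 33752 and 35707 in the unstressed group, so that both unstressed readings lay between the immobilized ones (log2 change 0.02 ± 0.18). Atp6v0b, for subunit c'', read 15544 and 13349 in the immobilized group, against 12350 and 11079 in the unstressed group. Its log2 change was 0.30 ± 0.14 (adjusted p = 0.138 in limma), and that of its dimmer probe set 0.94 ± 0.29 (adjusted p = 0.0496). Atp6v0d1, for subunit d at the rotor's foot, had -0.24 ± 0.15, and Atp6v0e1 and Atp6v0e2, for the small subunit e, had -0.16 and -0.30. Without overlap but not called, Atp6v1c2, the other C gene, read 1029 and 943 in the immobilized group and 1483 and 1411 in the unstressed group (log2 change -0.55 ± 0.20, adjusted p = 0.081 in limma). Among the genes for stalk subunit G, Atp6v1g1 had 0.05 and Atp6v1g2 had 0.16, and Atp6v0a4, the a4 form known from kidney, had 0.11. The kidney forms Atp6v1b1 and Atp6v1g3 lay under the filter, with readings from 9.38 to 124 within the range of the control probe sets.

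Of 8 tested assembly factors and regulators of the pump 0 rose and 2 fell, with a median log2 change of -0.26, and 2 of 8 is close to the 21.8% of all genes that fell. Ccdc115, an assembly factor of the endoplasmic reticulum, read 2957 and 2873 in the immobilized group, against 4286 and 4771 in the unstressed group, and fell by 0.63 on the log2 scale (SE 0.14, adjusted p = 0.0167 in limma). Ncoa7, whose protein binds the pump through its TLDc domain, read 6935 and 7947 in the immobilized group and 11379 and 10422 in the unstressed group, a log2 change of -0.55 ± 0.13 (adjusted p = 0.0201 in limma). Its other probe set had -0.57. Without immobilized 1 or 2 both calls were lost, with adjusted p of 0.105 and 0.127 for Ccdc115 and 0.134 and 0.0749 for Ncoa7, both were lost after median centring (0.0533 and 0.07), and that of Ncoa7 without the intensity trend (0.0525). Vma21, an assembly factor, had 0.46 at its brightest probe set (adjusted p = 0.0878 in limma). Its other probe sets had 0.16 and -0.06 (adjusted p = 0.546 and 0.859). The assembly factor Tmem199 had 0.10. Dmxl1, Rogdi and Dmxl2, of the complex that rejoins V1 to V0, had -0.50, -0.26 and 0.00.

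Among listed genes for proteins that use a proton gradient or carry its counter-ions, 2 of 6 tested rose and 1 fell. Their median log2 change was 0.37, while 11.2% of all genes rose and 21.8% fell. Slc18a2, a vesicular monoamine transporter, read 7997 and 7683 in the immobilized group, against 3301 and 2314 in the unstressed group, and rose 2.82-fold, with a 95% interval of 2.08 to 3.84 (adjusted p = 0.00209 in limma). Its other probe sets had log2 changes of 1.64 and 1.27. Slc18a1, the other one in chromaffin cells, read 26887 and 19833 in the immobilized group and 20078 and 11584 in the unstressed group, with overlap at a log2 change of 0.60 ± 0.27. Slc2a13, a proton-coupled myo-inositol transporter, rose by 0.81 ± 0.22 (adjusted p = 0.0313 in limma). Whether its protein uses the granule gradient was not examined. Clcn7, a lysosomal chloride-proton exchanger, read 440 and 420 in the immobilized group and 736 and 1093 in the unstressed group, a log2 change of -1.03 ± 0.27 (adjusted p = 0.0273 in limma). Both immobilized readings lay under the filter intensity of 544, so it was tested only because of its unstressed readings, and its fall is no support for a change of the list. Clcn3, of the same family, had 0.14, and Cyb561, which passes electrons into the granule, had -0.22. The calls on Slc2a13 and Clcn7 were lost without unstressed 2 (adjusted p = 0.0555 and 0.0822), without immobilized 1 (0.171 and 0.132) and without immobilized 2 (0.148 and 0.158), and that on Clcn7 with no filter as well, while Clcn7 lay under the filter at the 60th percentile. The sizes of change of Slc18a2 and of the pump genes were not tested against each other.

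**Figure D3:**
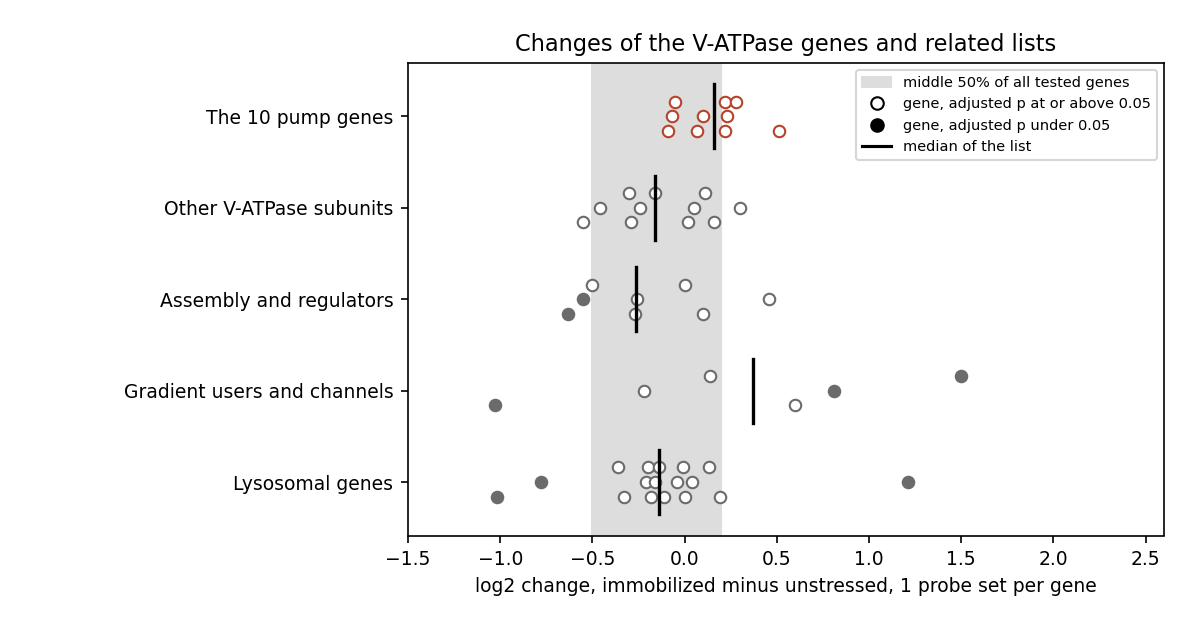
log2 change of each tested gene by its brightest probe set, immobilized minus unstressed, for the 10 pump genes and 4 related lists, with filled points past the adjusted threshold, vertical bars at list medians and the middle 50% of all tested genes shaded, -0.50 to 0.20. The pump genes hold no filled point, and the point furthest to the right is Slc18a2, at 2.82-fold.

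Of 17 lysosomal genes tested 1 rose and 2 fell, with a median log2 change of -0.14, the median of all genes, of which 11.2% rose and 21.8% fell. All 3 called genes encode transcription factors of the MiT family, which in human and mouse cells switch on lysosomal and V-ATPase genes. The other 14 genes were not called by their brightest probe set, and the difference between them and the factors was not tested. Tfeb read 1913 and 1543 in the immobilized group, against 3764 and 3239 in the unstressed group, a log2 change of -1.02 ± 0.19 (adjusted p = 0.00806 in limma). Tfe3 read 2421 and 2853 in the immobilized group and 4431 and 4618 in the unstressed group, a log2 change of -0.78 ± 0.15 (adjusted p = 0.0101). Mitf read 2008 and 1177 in the immobilized group, against 762 and 564 in the unstressed group, and rose by 1.21 ± 0.31 (adjusted p = 0.0272), with 1.27 at its other probe set. All 3 calls were lost without immobilized 2 (adjusted p = 0.0818 for Tfeb, 0.0599 for Tfe3 and 0.0515 for Mitf), and those of Tfe3 and Mitf also without immobilized 1 (0.0946 and 0.174). Lamp2, a lysosomal membrane protein gene, had 0.04 at its brightest probe set and 0.52 at another (adjusted p = 0.0177 in limma).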

How the data were processed

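Rat adrenal medulla RNA was measured on 4 arrays, 2 immobilized and 2 unstressed. Groups came from the submitters' sample descriptions, replicates were numbered in accession order, and the numbers pair nothing. The deposited table holds 1 linear intensity for each of 31099 probe sets and each array. The probe summarisation was not given in the sources used here. All 4 deposited columns share a trimmed mean of 2501 with 2% left out at each end, so that scaling was kept. There were 0 unused sample columns, and precision is limited by the number of arrays.

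The 57 control probe sets were left out. Intensities became log2(intensity + 16), and probe sets with a mean under the 40th percentile were not tested, which left 18625. Genes were named from GEO's platform annotation, checked by Entrez identifier against the GRCr8 gene table: 20826 probe sets had 1 symbol, 436 several and 9780 none, and 20758 of those with 1 symbol were found in the gene table. limma 3.58.1 in R 4.3.3 (lmFit, eBayes with an intensity trend) compared the groups by a two-sided test. p-values were adjusted by Benjamini-Hochberg across the 18625 probe sets, at a threshold of 0.05. An exact permutation test of 2 arrays against 2 cannot go below p = 0.33 and was not run. The fit was tested on simulated data. Where a gene had several probe sets, the brightest on average stood for it.

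The 10 genes, the lists of related genes and the 7 lists of cell type markers were chosen with earlier results of these data known. Genes named are all 10, every tested V-ATPase subunit and, of each other pathway list, up to 4 called genes with the largest change and no overlap. Slc18a1, Clcn3, Cyb561, Vma21, Tmem199, Dmxl1, Dmxl2, Rogdi, Lamp2, Esam, Kdr, S100b, Ucp1 and the cortical markers were named after their values were seen. Alternatives were quantile normalization, median centring, an offset of 1 or 64, leaving out the filter or raising it to the 60th percentile, eBayes with no trend or robust, a threshold of 0.10, averaging the probe sets of a gene, and omitting each array in turn. Centring on the probe sets in the brightness range of the pump genes was added after seeing the data. Figures used matplotlib 3.10.9.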

Additional observations from a re-analysis of the deposited data

How the results depend on the processing

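The count of pump genes called was 0 in either direction under all alternatives but 3: Atp6v1e1 alone was called after quantile normalization, after median centring and at a threshold of 0.10 (1 rise each). With an array left out 0 pump genes rose and 0 fell, and the lone array of a group was then assumed to vary like the other group. Over all probe sets tested the median log2 change was 0.02 after median centring and -0.06 after quantile normalization, against -0.12 with the deposited scaling. The share of rises among all calls was 53.2% and 44.9% under these scalings, against 37.6%, and 47.2% and 46.8% without immobilized 1 and without immobilized 2. The median of the 10 pump genes, 0.16 with the deposited scaling, was 0.30 after median centring, 0.07 after quantile normalization and 0.08 to 0.18 with an array left out.

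Signs of changes near 0 turned. After median centring Atp6ap1 had 0.05, Atp6v1a 0.09 and Atp6v1c1 0.07, and after quantile normalization Atp6v1d had -0.06, Atp6v0c -0.06 and Atp6v1g1 -0.10. With an array left out the range was -0.19 to 0.02 for Atp6ap1, -0.14 to 0.05 and -0.01 to 0.19 for the brighter and dimmer probe sets of Atp6v1a, -0.01 to 0.20 for Atp6v0a1, -0.03 to 0.17 for Atp6v1d, -0.22 to 0.25 for Atp6v0c and -0.03 to 0.12 for Atp6v1g1.

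Of the other V-ATPase subunits 2 fell after quantile normalization (Atp6v0d1 and Atp6v0e1) and at the threshold of 0.10, 1 fell without the intensity trend and with the probe sets of a gene averaged, and 1 rose with that average and after median centring. With an array left out 0 rose and 0 fell. Of the assembly factors 0 fell after median centring, 1 without the trend and 0 to 3 with an array left out, and 1 rose after either scaling and at 0.10. Of the gradient users 0 fell without a filter and at the 60th percentile, 0 to 1 fell with an array left out, and 1 to 3 rose. Of the lysosomal genes 0 rose at the 60th percentile, and with an array left out 0 to 1 rose and 0 to 2 fell. Without immobilized 1 and without immobilized 2 the share of all genes called was 12.5% and 10.3%, against 33.0%. No paired analysis was possible because replicate numbers came from accession order and the labels pair no arrays between the groups.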
